A study of Mus musculus with 30 samples.

Results

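The ligands and receptors that steer growing axons were measured in mouse embryonic stem (ES) cells and in the neural cells made from them. The genes were chosen by symbol alone, as every Eph receptor, ephrin, semaphorin, plexin, neuropilin, netrin, Slit, Robo and Unc5 gene of the usual numbering, plus Dcc, that has a probe set naming it alone. This gave 65 genes of the 15964 on the chips, with 118 probe sets. The rule uses no measured value, but it was chosen with earlier results of these data known. Of the 65 genes, 53 passed a filter on low signals and were tested, and 12 lay below it. The cells were of a Sox1-GFP line derived from the 129 strain, in which green fluorescent protein reports Sox1, a gene of the early neural plate. They were differentiated by SFEB, a culture of floating aggregates, in medium with 10% serum replacement, and the labels leave unsaid which samples, if any, also had fetal calf serum. The groups were Sox1-positive cells sorted on day 3, day 4 and day 5 (1 sample each), and 4 other aggregate samples with 1 sample each: day 1 cells with no sort named, day 2 E-cadherin-negative, day 2 E-cadherin-positive and day 3 Sox1-negative cells. The ES cells, sorted as E-cadherin-positive, gave 3 samples. All 10 samples come from this 1 reporter line, and RNA of each was read on 3 Affymetrix mouse chips (U74v2 A, B and C).

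Eph receptors are tyrosine kinases that bind ephrins on the surface of neighbouring cells, with EphA receptors mostly taking the lipid-anchored ephrin-A ligands and EphB receptors the transmembrane ephrin-B ligands. Semaphorins signal through plexins, and most of the secreted class 3 semaphorins need a neuropilin as co-receptor. Netrins attract axons through Dcc and repel them through Unc5 receptors, and Slits repel through Robo receptors. In the embryo many of these genes are switched on in the neural plate well before axons grow, where they mark territories and keep cell groups apart.

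The chips report linear intensities, 1 for each probe set, which the authors had scaled so that every array had nearly the same 2% trimmed mean (500.1 to 500.3), and the median intensity per array was 177 to 278. Precision is limited by how few arrays there are. ES cells alone were replicated, and no label calls their samples separate cultures, so their scatter may be technical. Where Sox1-positive cells or the other aggregates were compared as sets, samples of different days or sorts stood in as replicates. The spread behind a p-value of such a comparison therefore includes change between those days and sorts. For an aggregate sample tested alone against ES cells, the spread came from the ES samples. The summed markers of neural progenitors (7 genes) were 9800 to 16000 in Sox1-positive cells, 3400 to 9000 in the other aggregates and 3220 to 3530 in ES cells, and those of ES cells (7 genes) were 1510 to 6810, 8820 to 27200 and 33200 to 42800 in the same order. The 9000 and the 8820 were both those of day 2 E-cadherin-negative cells. The rest of the other aggregates had 3400 to 4170 and 23000 to 27200. Sox1 itself read 308, 310 and 252 in Sox1-positive cells of days 3 to 5, against 241 in day 3 Sox1-negative cells and 138 to 173 in ES cells. It read 152 on day 1, and 253 and 251 in day 2 E-cadherin-positive and E-cadherin-negative cells, level with day 5. Libraries also differed in RNA quality: the actin 3′ to 5′ ratio on the A chip was 1.7 in ES 3, 1.34 in day 5 and 1.33 in day 2 E-cadherin-negative cells, and 0.939 to 1.15 elsewhere. In bulk samples such as these, fewer cells of a type and less RNA per cell cannot be told apart.

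The first comparison asked which guidance genes distinguish Sox1-positive cells (days 3, 4 and 5 together) from ES cells, 3 samples on each side. Of the 10 genes that rose, 7 were Eph receptors or ephrins (Epha3, Epha4, Epha7, Ephb1, Efna5, Efnb2 and Efnb3), and the others were Sema6a, Sema6d and Plxnb1. Eph receptors and ephrins made up 17 of the 53 genes tested and 9 of the 19 that lay above all ES samples in every Sox1-positive sample, and no test was made between the systems. Epha2 and Sema4a fell. The test was limma on log2 of the intensity plus 16, with Benjamini-Hochberg adjustment over all probe sets of the 3 chips, and a gene was called at an adjusted p under 0.05. The scale understates the change of genes with low signals. Of the 53 guidance genes 10 rose (18.9%), against 6.4% of all 12941 genes tested, and 2 fell (3.77%), against 6.17% of all genes. The remaining 41 did not pass the test. In 24 of the 53 (45.3%) the Sox1-positive and ES samples did not overlap, 19 lying above and 5 below, and among all genes 35.1% had no overlap. The median log2 difference was 0.48 over the guidance genes and -0.01 over all genes. 1 of the 53, Plxnd1, would not have passed the filter without the Sox1-positive samples.

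The call count depended on single libraries, being 7 without ES 2, 7 without ES 3 and 6 without the day 4 sample, against 9 or 10 without any 1 of the others. Calls over all genes fell too, from 6.4% risen and 6.17% fallen with every sample in. These shares were 2.86% and 2.83% without ES 2, 4.18% and 3.57% without ES 3, and 2.81% and 3.25% without day 4. Without any 1 of the others they were 4.22% to 4.83% and 4.17% to 4.63%. Efnb2, Efnb3, Epha7 and Sema4a kept their call whichever 1 sample was left out. Epha3 and Epha4 lost theirs without any 1 sample other than day 5, and Epha2 without any 1 ES sample or day 4. Sema6a lost its call without ES 1, ES 3, day 3 or day 5, Ephb1 without ES 2, ES 3 or day 4, Plxnb1 without ES 2 or day 4, Sema6d without ES 2, and Efna5 without day 4 or day 5. Robo2 was called when ES 2 was left out, and also with a pseudocount of 64, with the filter at the 60th percentile and with the mean over probe sets. Plxnd1 was called when ES 1 was left out. Leaving out ES 3 and day 5 together, which had the highest actin ratios, gave 6, an alternative added after the data had been seen. Over all genes 2.5% then rose and 2.33% fell.

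**Figure D1:**
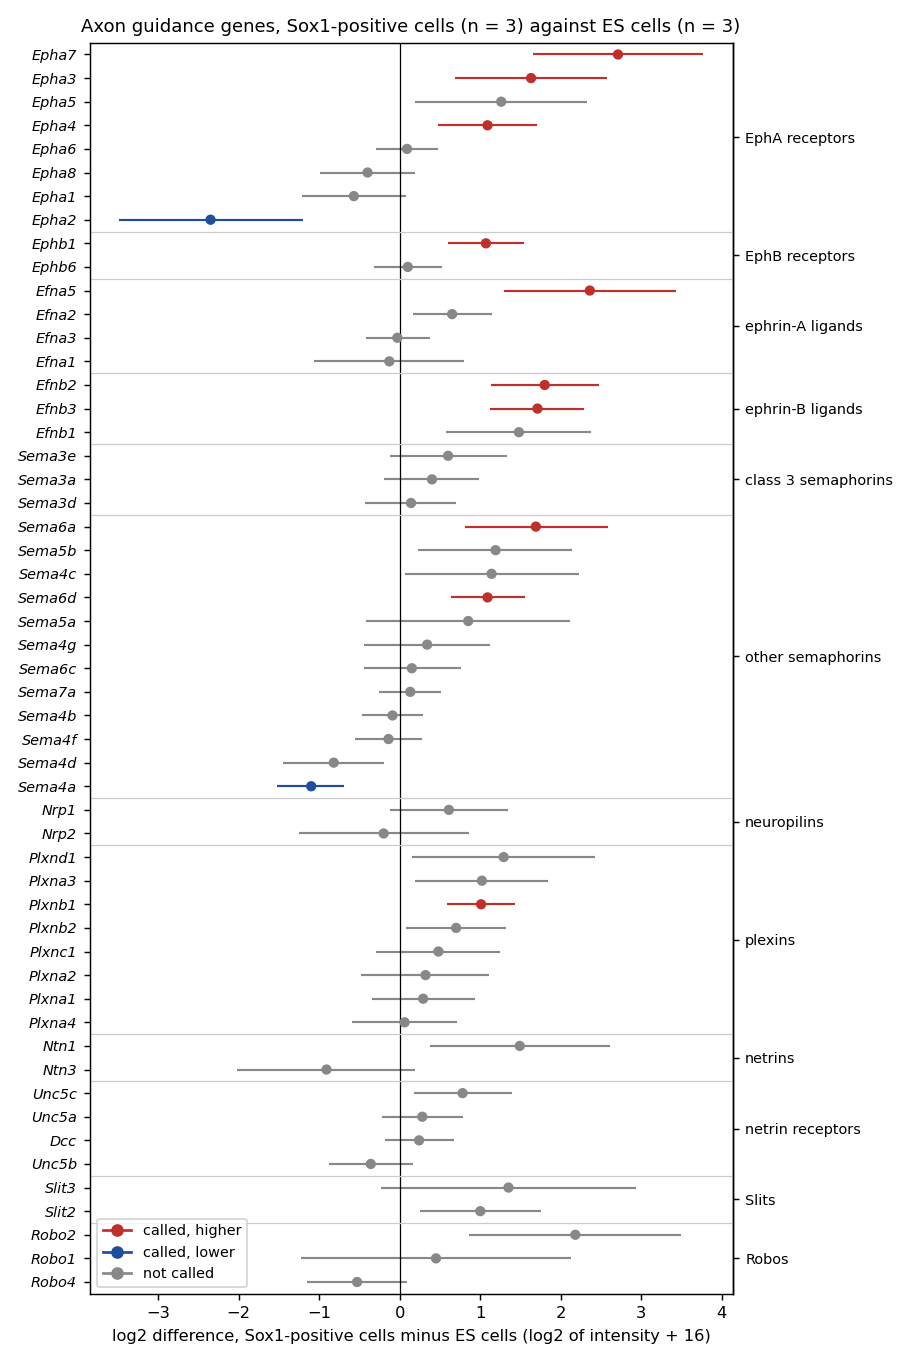
The log2 difference of each of the 53 tested guidance genes, Sox1-positive cells (n = 3) minus ES cells (n = 3), is plotted with its 95% confidence interval from limma, grouped by family. Red marks the 10 genes that rose, blue the 2 that fell and grey the 41 that did not pass the test, and the Eph receptors and ephrins hold both the highest (Epha7, 2.71) and the lowest (Epha2, -2.35) difference.

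Among EphA receptors 3 of the 8 tested rose (6.4% of all genes did), 1 fell (6.17% of all genes) and 4 did not pass. Epha7 is a receptor for ephrin-A5, a pair known in the mouse for its part in closing the neural tube. Its intensity was 1220, 2700 and 819 in Sox1-positive cells of days 3, 4 and 5, against 133, 313 and 188 in the 3 ES samples. Day 2 E-cadherin-negative cells read 978, whereas day 1, day 2 E-cadherin-positive and day 3 Sox1-negative cells read 247, 237 and 250, within the ES range. The Sox1-positive samples thus did not overlap with ES cells, and Epha7 averaged 1579 ± 990 in Sox1-positive cells and 211 ± 92.1 in ES cells (SD, n = 3 each), a log2 difference of 2.71 (SE 0.459, limma adjusted p = 0.0105). A second, dimmer Epha7 probe set read 183, 174 and 127 in Sox1-positive cells and 59.1, 47.4 and 24.1 in ES cells. It was called (log2 difference 1.61, limma adjusted p = 0.00895), but it passed the filter only through the Sox1-positive samples and so adds no support.

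Epha3 and Epha4 peaked earlier than day 5. Epha3, which binds ephrin-A5 with high affinity, read 298, 393 and 121 in Sox1-positive cells of days 3, 4 and 5, 71.1 to 114 in the other aggregates, and 81, 88 and 43.1 in ES cells. All 3 Sox1-positive samples lay above all others, although day 5 did so narrowly. The log2 difference from ES cells was 1.63 (SE 0.408, limma adjusted p = 0.0414). Epha4, unusual among Eph receptors in binding both ephrin classes, read 521, 384 and 249 in Sox1-positive cells of days 3, 4 and 5. It read 94, 98.8 and 105 in day 1, day 2 E-cadherin-positive and day 3 Sox1-negative cells, 186 in day 2 E-cadherin-negative cells, and 193, 150 and 153 in ES cells. So the 3 aggregate samples with the lowest Epha4 lay below every ES sample. The log2 difference between Sox1-positive and ES cells was 1.09 (SE 0.269, limma adjusted p = 0.0391). With 1 sample left out the highest limma adjusted p was 0.125 for Epha3 and 0.135 for Epha4. Other Epha4 probe sets lay below the filter and did not show the rise. One read 37.2, 64.8 and 22.5 in Sox1-positive cells of days 3, 4 and 5. It read 67.1 to 97.2 in the other aggregates and 104, 27.1 and 75.6 in ES cells. Another read 84.6, 20.6 and 34.7 in Sox1-positive cells and 40.3, 30.6 and 63.4 in ES cells.

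Epha2 was the 1 EphA receptor that fell. It is an ephrin-A receptor best known from epithelia. Its intensity was 319, 204 and 53.9 in Sox1-positive cells of days 3, 4 and 5, against 831, 901 and 859 in ES cells. Among the other aggregates it was 1320 on day 1, 636 and 634 in day 2 E-cadherin-positive and day 3 Sox1-negative cells, and 315 in day 2 E-cadherin-negative cells. Thus the value was lower in every Sox1-positive sample than in any ES sample, and lowest on day 5. The mean was 192 ± 133 in Sox1-positive cells and 863 ± 35.2 in ES cells (SD, n = 3 each), a log2 difference of -2.35 (SE 0.499, limma adjusted p = 0.0225). Where leaving out 1 sample ended the call, the limma adjusted p was 0.0551 to 0.0878 and the difference -2.52 to -2.32. Of the other tested EphA receptors, Epha5, Epha6, Epha8 and Epha1 had log2 differences of 1.26, 0.09, -0.40 and -0.57, none past the threshold. Both Epha1 and Epha8 nevertheless lay below the ES range in all 3 Sox1-positive samples.

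Ephb1, an ephrin-B receptor known from retinal axons that stay on their own side at the optic chiasm, read 2010, 2120 and 2820 in Sox1-positive cells of days 3, 4 and 5. The other aggregates read 940 to 1210 and the ES samples 1140, 1120 and 992, so all 7 of these lay together and below the Sox1-positive cells. The log2 difference from ES cells was 1.07 (SE 0.203, limma adjusted p = 0.0159). Ephb6, which lacks kinase activity, depended on the probe set, as given below with 2 other such genes. Ephb3 was below the filter, with 60.1, 115 and 52.5 in Sox1-positive cells, 19.3 to 120 in the other aggregates and 63.9 to 106 in ES cells.

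Of the 7 ephrin genes tested 3 rose (6.4% of all genes did), namely Efna5, Efnb2 and Efnb3, and 4 did not pass. Efna5, a repellent ligand that maps retinal axons in the midbrain, read 7350, 9130 and 10100 in Sox1-positive cells of days 3, 4 and 5, against 829, 2380 and 2440 in ES cells. Day 2 E-cadherin-negative cells read 5870, and day 1, day 2 E-cadherin-positive and day 3 Sox1-negative cells read 1570, 1290 and 1640. The lone E-cadherin-negative sample thus lay close to the Sox1-positive ones, and ES 1 lay well below the other ES samples. The log2 difference between Sox1-positive and ES cells was 2.36 (SE 0.453, limma adjusted p = 0.0201). A second Efna5 probe set rose as well (log2 difference 2.68, limma adjusted p = 0.0177). Without day 4 or without day 5 neither passed, with limma adjusted p of 0.0519 to 0.0749. The other tested ephrin-A genes, Efna2, Efna3 and Efna1, had log2 differences of 0.65, -0.03 and -0.13, and Efna2 lay above all ES samples in the 3 Sox1-positive samples without passing (limma adjusted p = 0.0973). Efna4 was below the filter, with 23.8, 69.5 and 149 in Sox1-positive cells and 12.4 to 66.8 in ES cells.

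All 3 ephrin-B genes lay above the ES samples in every Sox1-positive sample. Efnb2, also a marker of arteries, read 1960, 2090 and 1640 in Sox1-positive cells of days 3, 4 and 5, 1880 in day 2 E-cadherin-negative cells, 932 to 979 in the other aggregates, and 325, 671 and 679 in ES cells. Every aggregate sample therefore lay above every ES sample. The log2 difference between Sox1-positive and ES cells was 1.80 (SE 0.292, limma adjusted p = 0.00802), and it passed in all 15 alternatives tried. Efnb3, a midline ligand of the spinal cord that turns back axons carrying EphA4, read 1030, 1610 and 1970 in Sox1-positive cells of days 3, 4 and 5. The other aggregates read 343, 384 and 446, with 608 in day 2 E-cadherin-negative cells, and the ES cells 425, 414 and 497. On this probe set Efnb3 was thus higher in each later Sox1-positive sample, with a log2 difference from ES cells of 1.71 (SE 0.253, limma adjusted p = 0.0057) that also passed in all 15 alternatives. A second Efnb3 probe set read 631, 740 and 675 in Sox1-positive cells of days 3, 4 and 5. In the other aggregates it read 646 on day 1 and 360 to 527 elsewhere, and in ES cells 455, 374 and 362. It was called too, but lost its call in 8 of 15 alternatives. Efnb1 read 3490, 2590 and 1900 in Sox1-positive cells of days 3, 4 and 5, 2650 in day 2 E-cadherin-negative cells, 829 to 1130 in the other aggregates, and 501, 1160 and 1310 in ES cells. Its order over the days was the reverse of that of Efnb3 on the brighter probe set. This Efnb1 probe set just missed the threshold (log2 difference 1.48, limma adjusted p = 0.0505), while its other probe set passed (1.89, limma adjusted p = 0.0169). Of endothelium and blood markers, 3 of 7 passed the filter, and 0 were called in Sox1-positive cells against ES cells or the other aggregates. This does not show that they were unchanged. Their summed level (7 genes) was 406 to 452 in Sox1-positive cells, 681 to 816 in the other aggregates and 440 to 638 in ES cells.

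**Figure D2:**
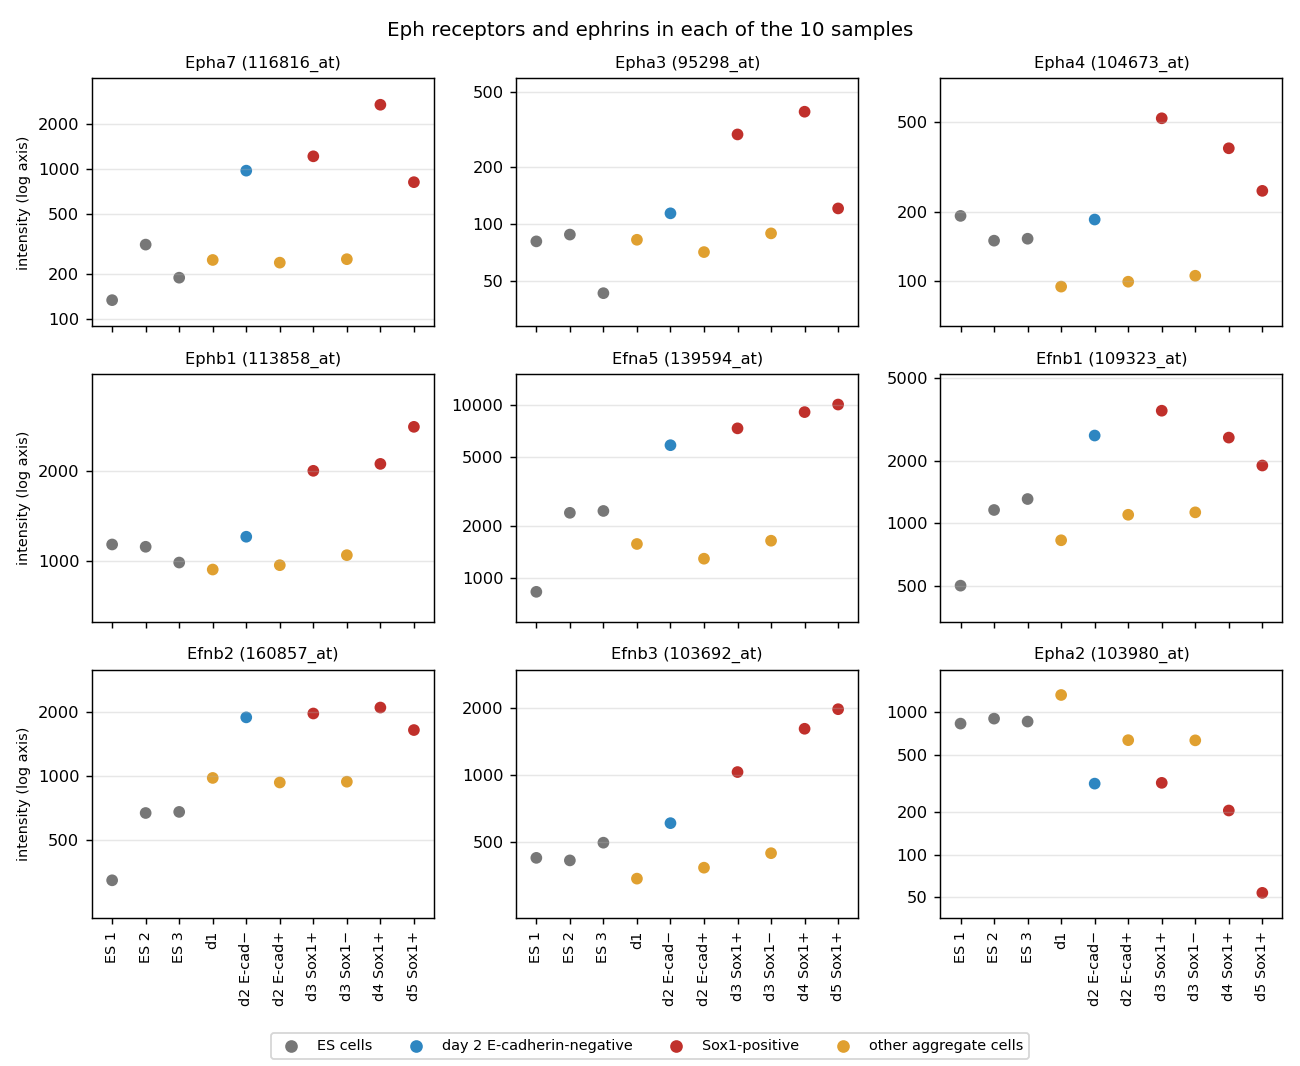
Each point is the intensity (log axis) of 1 sample for 9 Eph and ephrin probe sets, with ES cells at the left and the aggregates by day. Sox1-positive samples (red) lie above the ES samples (grey) for all but Epha2, and the day 2 E-cadherin-negative sample (blue) lies near them for Efna5, Efnb1 and Efnb2 (5870, 2650 and 1880).

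For the genes with the largest changes, RefSeq promoters of the assembly GRCm38.p6 were read, and the 250 bases before the annotated start are shown for 3 genes that rose together (Epha7, Efna5 and Efnb2) and for Epha2, which fell. They were picked after their values were seen. The windows are chr17:62881318-62881567 (minus strand) for Efna5, chr8:8661243-8661492 (minus strand) for Efnb2, chr4:28812881-28813130 (plus strand) for Epha7 and chr4:141300971-141301220 (plus strand) for Epha2. Each is written 5′ to 3′ on the strand of its gene, and capitals mark CG dinucleotides, the letters that are dense in CpG islands.
Epha7: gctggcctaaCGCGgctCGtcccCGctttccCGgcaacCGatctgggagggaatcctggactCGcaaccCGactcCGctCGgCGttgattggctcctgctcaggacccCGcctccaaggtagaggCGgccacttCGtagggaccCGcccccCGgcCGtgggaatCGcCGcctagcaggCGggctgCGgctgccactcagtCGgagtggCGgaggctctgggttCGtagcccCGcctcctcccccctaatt
Efna5: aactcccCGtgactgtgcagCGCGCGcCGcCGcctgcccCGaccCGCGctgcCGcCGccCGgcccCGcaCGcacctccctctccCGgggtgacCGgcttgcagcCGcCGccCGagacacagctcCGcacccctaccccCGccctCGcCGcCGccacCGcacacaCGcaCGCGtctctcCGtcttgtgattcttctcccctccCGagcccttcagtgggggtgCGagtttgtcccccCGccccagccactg
Efnb2: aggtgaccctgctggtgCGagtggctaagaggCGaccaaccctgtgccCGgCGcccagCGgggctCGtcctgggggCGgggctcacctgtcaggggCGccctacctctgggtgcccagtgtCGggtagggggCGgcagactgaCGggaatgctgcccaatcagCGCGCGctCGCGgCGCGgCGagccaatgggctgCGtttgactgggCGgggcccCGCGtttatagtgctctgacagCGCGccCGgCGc
Epha2: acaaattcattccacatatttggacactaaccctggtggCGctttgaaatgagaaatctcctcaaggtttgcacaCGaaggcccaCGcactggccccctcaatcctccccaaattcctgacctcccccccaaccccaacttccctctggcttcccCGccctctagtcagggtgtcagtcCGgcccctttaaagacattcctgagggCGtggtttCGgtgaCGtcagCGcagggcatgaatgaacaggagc
The CG dinucleotide occurred 25, 32 and 27 times in the windows of Epha7, Efna5 and Efnb2, and 9 times in that of Epha2. Of all 32851 promoter windows of the same length, 10.7%, 4.58% and 8.56% held as many CG as those of Epha7, Efna5 and Efnb2, and 40.3% held as many as that of Epha2. Over the 72 windows of the 56 guidance genes with an entry the median was 15.5, and over all windows it was 6. The octamer ATGCAAAT, searched on both strands, was in 0 of the 72 windows and in 1.6% of all windows, and ACAAT, the core of SOX sites, was in 13 of the 72 (18.1%) and in 27.7% of all. None of the 4 windows shown held either.

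Among semaphorins, plexins and neuropilins 3 of 25 tested genes rose, against 6.4% of all genes, and 1 fell, against 6.17% of all genes. None of the 3 tested class 3 semaphorins passed (Sema3e, Sema3a and Sema3d, log2 differences 0.60, 0.40 and 0.14), and Sema3b, Sema3c, Sema3f and Sema3g were below the filter. The genes that rose were transmembrane. Sema6d, a ligand of plexin-A1, read 435, 454 and 547 in Sox1-positive cells of days 3, 4 and 5, 627 in day 2 E-cadherin-negative cells, 117 to 245 in the other aggregates, and 241, 223 and 183 in ES cells. The day 2 E-cadherin-negative sample was the highest of all 10. The log2 difference between Sox1-positive and ES cells was 1.09 (SE 0.198, limma adjusted p = 0.0131), while a second Sema6d probe set did not pass (0.20, limma adjusted p = 0.6).

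Sema6a, a ligand of plexin-A2 and plexin-A4, rose in Sox1-positive cells on 1 of its probe sets. There it read 330, 209 and 451 in Sox1-positive cells of days 3, 4 and 5, and 406, 419, 348 and 348 in day 1, day 2 E-cadherin-negative, day 2 E-cadherin-positive and day 3 Sox1-negative cells. In ES cells it read 57.1, 154 and 70.4, below all 7 aggregate samples. The log2 difference from ES cells was 1.69 in Sox1-positive cells (limma adjusted p = 0.0298) and 1.94 in the other aggregates (limma adjusted p = 0.0849, not called). Other Sema6a probe sets differed. One read 168, 148 and 289 in Sox1-positive cells of days 3, 4 and 5 and 200, 189 and 167 in ES cells, which overlap (log2 difference 0.06, limma adjusted p = 0.92). Another read 52.4, 62.4 and 714 in Sox1-positive cells of days 3, 4 and 5, 359 in day 2 E-cadherin-negative cells, and 37.5 to 58.4 in the 6 remaining samples. That probe set passed the filter only through the Sox1-positive samples. The samples in which it was bright, day 5 and day 2 E-cadherin-negative, had the most Elavl4 (1770 and 680) and Map2 (1580 and 792), markers of neurons. Over the whole neuron list (9 genes) they summed to 17300 and 12400, against 6020 to 8400 elsewhere. Stmn2 and Elavl3 of that list did not rank both samples highest. The actin ratios of day 5 and day 2 E-cadherin-negative cells (1.34 and 1.33 on the A chip) were above those of all other samples but ES 3, which had the highest (1.7) and read 56.6 on this probe set. The part of either in the result was not tested.

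Sema4a, a transmembrane semaphorin studied mostly in immune cells, fell. Its intensity was 234, 187 and 231 in Sox1-positive cells of days 3, 4 and 5, 273 to 397 in the other aggregates, and 491, 425 and 539 in ES cells. The 3 sets of samples did not overlap, with the other aggregates in between. The log2 difference between Sox1-positive and ES cells was -1.10 (SE 0.182, limma adjusted p = 0.00877), whereas a second, dimmer probe set did not pass (0.08). Sema4d, the ligand of plexin-B1, was likewise below the ES samples in every Sox1-positive sample without passing (log2 difference -0.82, limma adjusted p = 0.106). It read 268, 525 and 456 in Sox1-positive cells, 323 in day 2 E-cadherin-negative cells, 705 to 868 in the other aggregates, and 643, 641 and 904 in ES cells. Its receptor Plxnb1 rose, reading 1930, 2240 and 2450 in Sox1-positive cells of days 3, 4 and 5, 1300 to 1660 in the other aggregates, and 1080, 1070 and 1110 in ES cells. Here too the other aggregates lay between, and the log2 difference from ES cells was 1.01 (SE 0.182, limma adjusted p = 0.0131). That order held on this Plxnb1 probe set only. A second one, also called, read 904, 869 and 1450 in Sox1-positive cells, 263 to 461 in the other aggregates and 169 to 504 in ES cells. Another, not called, read 906, 1140 and 1550 in Sox1-positive cells, 537 to 924 in the other aggregates and 431 to 913 in ES cells, which overlap. Of the other 7 tested plexins none passed on the probe set used, with log2 differences of 0.06 (Plxna4) to 1.29 (Plxnd1). The neuropilins Nrp1 and Nrp2 had log2 differences of 0.61 and -0.20 and did not pass.

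No netrin, netrin receptor, Slit or Robo passed on the probe set used, 11 genes in all. Robo2 came closest: it read 515, 944 and 443 in Sox1-positive cells of days 3, 4 and 5, 49.6 to 400 in the other aggregates, and 72.2, 297 and 75.5 in ES cells. The Sox1-positive samples lay above all others, and the spread within ES cells was wide (log2 difference 2.18, SE 0.559, limma adjusted p = 0.0527). Among netrin receptors, Unc5c lay above all ES samples (107, 117 and 208 in Sox1-positive cells, 61.2 to 89.6 in ES cells), with 261 in day 2 E-cadherin-negative and 41.4 to 98.6 in the other aggregates. It did not pass (log2 difference 0.78, limma adjusted p = 0.103), and neither did Unc5a, Dcc and Unc5b, with 0.28, 0.24 and -0.36.

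The secreted midline cues were highest on day 5, a pattern picked out after the values were seen. Ntn1, which attracts commissural axons to the floor plate, read 487, 509 and 1900 in Sox1-positive cells of days 3, 4 and 5, 181 to 492 in the other aggregates, and 231, 241 and 339 in ES cells. Slit1 was below the filter, yet read 529 on day 5 and 39.7 to 88.2 in the other 9 samples. Slit2 read 378, 505 and 970 in Sox1-positive cells of days 3, 4 and 5, 635 in day 2 E-cadherin-negative cells, 199 to 341 in the other aggregates, and 268, 301 and 263 in ES cells. Day 5 was thus the highest of the 10 samples for all of these genes. Slit3 read 1350, 884 and 6470 in Sox1-positive cells of days 3, 4 and 5, 796 to 1960 in the other aggregates, and 1200, 720 and 520 in ES cells, and the suffix of its probe set (_f_at) marks probes shared within a sequence family. Foxa2, a transcription factor of floor plate and endoderm, read 1310 on day 5 and 28.1 to 55.3 in the other 9 samples. With 1 sample on day 5 the pattern has no replicate, and none of the 3 tested genes passed against ES cells (Ntn1 1.49, Slit2 1.00 and Slit3 1.35 on the log2 scale, limma adjusted p = 0.0945, 0.0993 and 0.276). Endoderm markers as a list (7 genes, Foxa2 among them) summed to 973 to 2370 in Sox1-positive cells, 876 to 1330 in the other aggregates and 860 to 1170 in ES cells, and 0 of 7 passed.

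**Figure D3:**
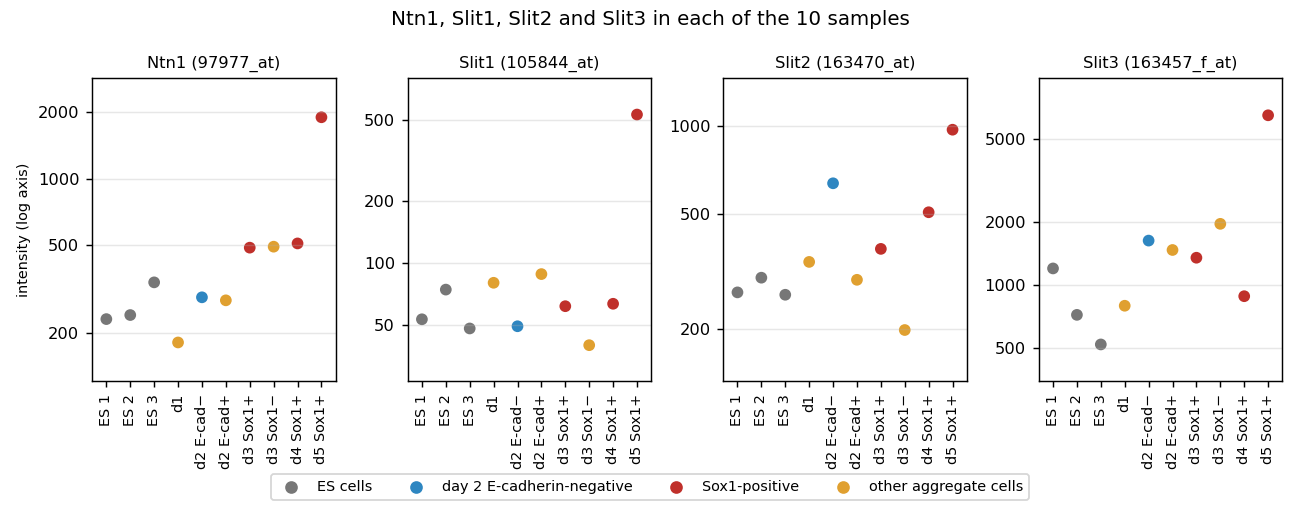
The intensity (log axis) of Ntn1, Slit1, Slit2 and Slit3 is plotted for each of the 10 samples, ES cells at the left and aggregates by day. The day 5 Sox1-positive sample is the highest point in each panel, at 1900, 529, 970 and 6470.

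Some genes had probe sets that disagreed. If a gene was counted when any of its probe sets past the filter was called, 15 guidance genes rose (8.65% of all genes did) and 3 fell (7.61% of all genes). Those added were Efnb1, Ephb6, Plxna2, Robo1 and Sema5b as risen and Sema4b as fallen. For Plxna2, a receptor of class 6 semaphorins, the brightest probe set gave a log2 difference of 0.32 (limma adjusted p = 0.636), while 3 others gave 3.11, 2.16 and 2.08 (limma adjusted p = 0.00264, 0.00535 and 0.039). The probe set with the largest of these read 325, 392 and 895 in Sox1-positive cells of days 3, 4 and 5, 165 in day 2 E-cadherin-negative cells, 48.9 to 64.5 in the other aggregates, and 42.6, 33 and 53.1 in ES cells. Every Sox1-positive sample lay above every other sample on it, but it passed the filter only through those samples, so its calls here and against the other aggregates are no support. The brightest probe set showed mixed samples. For Robo1, a Slit receptor, the brightest probe set read 160, 250 and 42.1 in Sox1-positive cells, 260 in day 2 E-cadherin-negative cells, 51 to 136 in the other aggregates, and 131, 152 and 27.3 in ES cells. On the other one Robo1 read 201, 238 and 192 in Sox1-positive cells, 54.4 to 174 in the other aggregates and 16.2 to 48.1 in ES cells, with log2 differences from ES cells of 0.45 (limma adjusted p = 0.767) on the brighter and 2.34 (limma adjusted p = 0.00189) on the dimmer. Ephb6 likewise gave 0.10 on the brighter probe set and 2.22 (limma adjusted p = 0.000952) on the dimmer, which read 262, 256 and 283 in Sox1-positive cells, 63.3 to 230 in the other aggregates and 35.3 to 62.6 in ES cells. Sema5b gave 1.19 and 1.86, and Sema4b -0.09 and -1.16, the second of each being called (limma adjusted p = 0.0417 and 0.0118). Which transcripts each probe set detects was not tested.

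**Figure D4:**
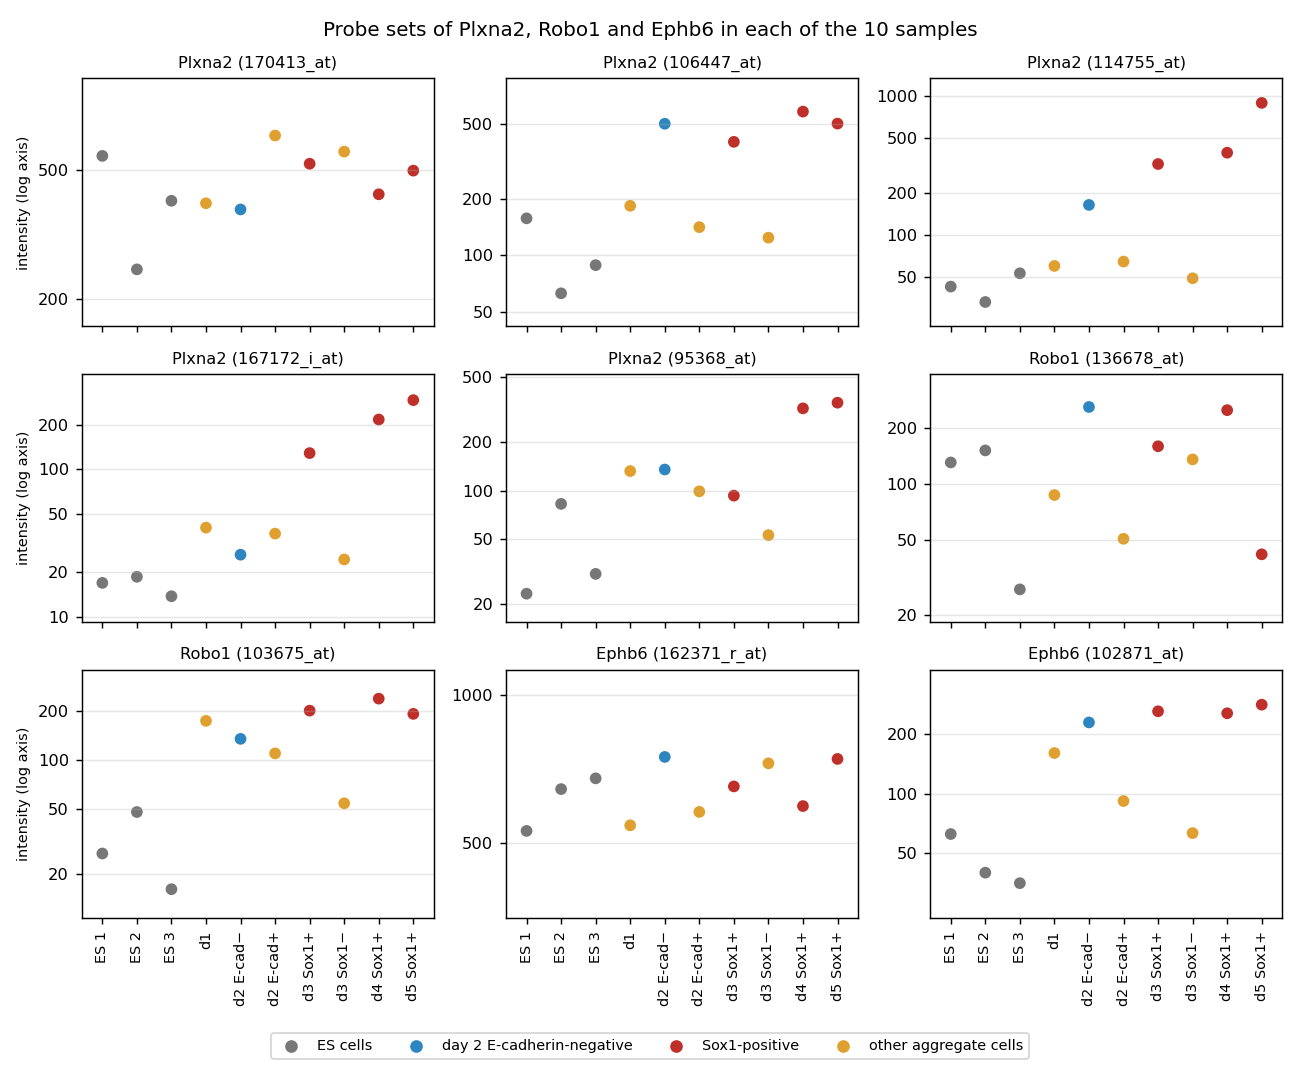
The intensity (log axis) in each of the 10 samples is plotted for 5 probe sets of Plxna2, 2 of Robo1 and 2 of Ephb6. On the brightest probe set of each gene the Sox1-positive samples (red) overlap with ES cells (grey), and on the others they lie above them.

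The second comparison set Sox1-positive cells against the 4 other aggregate samples. The Sox1-positive cells were of days 3, 4 and 5 and the others of days 1, 2, 2 and 3, so the sort and the day cannot be told apart here. Efnb3, Epha4 and Ephb1 were called higher in Sox1-positive cells, and no guidance gene was called lower. They averaged 1537 ± 475 in Sox1-positive cells and 445 ± 117 in the other aggregates for Efnb3, 385 ± 136 and 121 ± 43.3 for Epha4, and 2316 ± 436 and 1042 ± 120 for Ephb1 (SD, n = 3 and 4). The log2 differences were 1.73, 1.54 and 1.13, with limma adjusted p of 0.0307, 0.0453 and 0.0394. The second Efnb3 probe set was not called here, and its 646 on day 1 lay above its 631 in day 3 Sox1-positive cells. So 3 of 53 genes rose (5.66%), against 0.61% of all genes, and 0 fell, against 1.14% of all genes. In 12 of 53 (22.6%) the samples did not overlap, 9 lying above and 3 below, and among all genes 21.1% had no overlap. With any probe set counted, Efna5, Plxna2 and Plxnb1 were added, giving 6 risen (0.989% of all genes) and 0 fallen (1.41% of all genes).

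The day 2 E-cadherin-negative sample bore on this comparison most. Without it 10 guidance genes rose (Efna2, Efna5, Efnb1, Efnb2, Efnb3, Epha4, Epha7, Ephb1, Sema4c and Sema6d) and 2 fell (Epha2 and Unc5b), and 1321 genes were called over all genes, against 226 with it. Without the day 3 Sox1-positive sample 1 guidance gene was called, Efnb3, and without any 1 of the other 5 samples none was, while the calls over all genes were 51 and 1 to 9.

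Outside the Sox1-positive sorts, no guidance gene passed the test against ES cells. The 4 other aggregate samples together differed from ES cells in 0 of 53 genes by limma, against 0.0309% of all genes, and 2640 of the 25690 probe sets tested had an unadjusted p under 0.05. Each of the 4 taken alone, with the spread from the ES samples, likewise gave 0 of 53. Over all genes the calls came to 0% for day 1, 0% for day 2 E-cadherin-positive, 0.0232% for day 2 E-cadherin-negative and 0% for day 3 Sox1-negative cells, and 1625, 2087, 3506 and 1709 probe sets had an unadjusted p under 0.05. The lowest adjusted p of a guidance gene was that of Unc5c in day 2 E-cadherin-negative cells (log2 difference 1.63, limma adjusted p = 0.117).

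The samples were therefore described by how many guidance genes lay outside the range of the 3 ES samples. On day 1, 13 of 53 lay above (27.4% of all genes did) and 14 below (25.9% of all genes). Day 2 E-cadherin-negative cells had 29 above (33.7% of all genes) and 6 below (29.5%), and day 2 E-cadherin-positive cells 17 above (27.3%) and 15 below (27.7%). Day 3 Sox1-positive cells had 29 above (31.5%) and 8 below (32.8%), and day 3 Sox1-negative cells 19 above (27.4%) and 9 below (26.1%). On day 4 there were 27 above (31.8%) and 10 below (33.4%), and on day 5, 33 above (32.6%) and 7 below (34.5%). The guidance genes above the ES range outnumbered those below in the Sox1-positive samples and the day 2 E-cadherin-negative sample by at least 17, and on day 1 and in day 2 E-cadherin-positive cells the counts were within 2 of each other. Day 3 Sox1-negative cells, with 19 and 9, lay between. The summed neuron markers (9 genes) were 7780 to 17300 in Sox1-positive cells, 6020 to 12400 in the other aggregates and 7980 to 8370 in ES cells, with the 2 upper ends in day 5 and day 2 E-cadherin-negative cells. Their part in these counts was not tested.

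**Figure D5:**
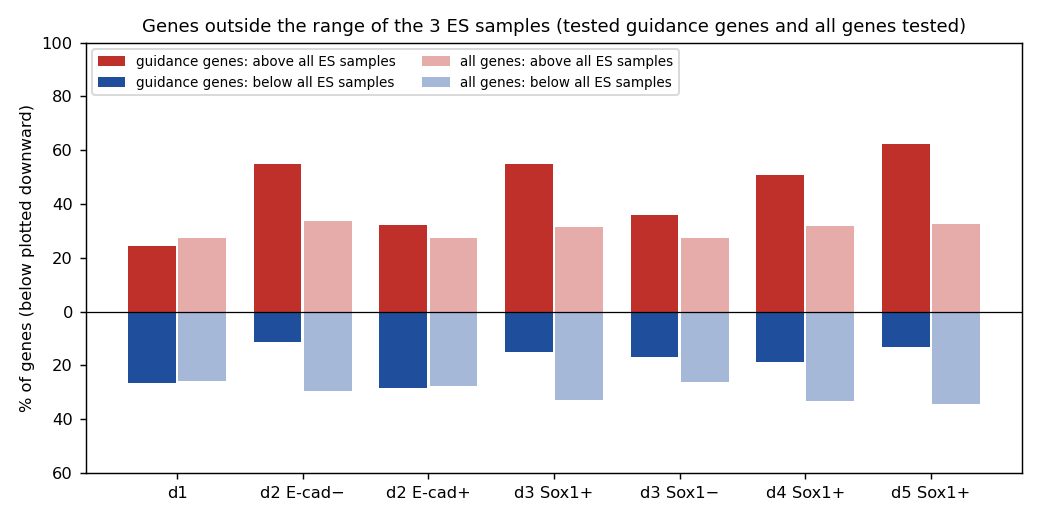
Bars give the percentage of the 53 tested guidance genes (dark) and of all 12941 tested genes (pale) above (upward) or below (downward) all 3 ES samples, for each aggregate sample. For guidance genes the upward bars are longest on day 5 (62.3%), in day 2 E-cadherin-negative (54.7%) and day 3 Sox1-positive cells (54.7%).

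The 2 sorts of a single day share the day by their labels, which do not say whether they came from 1 culture. Each side has 1 sample, so these are values of those samples and no test was made. Between the 2 day 2 sorts, 9 of 53 guidance genes (17%) were higher by 1 or more on the log2 scale in E-cadherin-negative cells, against 6.97% of all genes, and 1 (1.89%) was lower, against 4.78% of all genes. Sema6d and Unc5c had the largest differences (both 2.27), followed by Efna5 (2.18), Robo1 (2.04), Epha7 (1.98), Nrp1 (1.77), Efnb1 (1.26), Slit2 (1.06) and Efnb2 (1.00), and Sema4d was lower (-1.09). Second probe sets past the filter gave -0.05 for Sema6d and 0.26 for Robo1, but 1.9 for Efna5, 1.87 for Efnb1 and 1.21 for Slit2. Nrp1, a co-receptor of class 3 semaphorins and of vascular growth factor, read 170 in E-cadherin-negative and 38.4 in E-cadherin-positive cells. Pairs of ES samples differed by as much in 5.23% to 10.3% of all genes, in either direction.

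Between the day 3 sorts, 10 of 53 (18.9%) were higher in Sox1-positive cells, against 6.86% of all genes, and 3 (5.66%) were lower, against 7.33% of all genes. Plxnd1 is among the 10 although it passed the filter only through the Sox1-positive samples, and its 172 in Sox1-positive and 46.3 in Sox1-negative cells both lie below the chip's median. Robo2 had the largest difference, 515 in Sox1-positive and 49.6 in Sox1-negative cells (3.02 on the log2 scale). Epha7 (2.21), Efna5 (2.15), Epha4 (2.15), Efnb1 (1.61), Plxnd1 (1.59), Epha3 (1.58), Efnb3 (1.18), Efnb2 (1.05) and Sema6d (1.00) followed. The 3 lower in Sox1-positive cells were Epha8 (85.2 in Sox1-positive and 325 in Sox1-negative cells, -1.75), Sema4d (268 and 868, -1.64) and Sema3e (258 and 540, -1.02). Epha8 read 166 and 175 on days 4 and 5, 153 to 224 in the remaining aggregates, and 191, 178 and 185 in ES cells. Its difference on day 3 thus came from a low and a high sample at once. Sema3e, a ligand of plexin-D1, read 244 and 357 on days 4 and 5, 182 to 436 in the remaining aggregates, and 185, 110 and 282 in ES cells. On the probe set used, Efna5, Epha7, Efnb1, Efnb2 and Sema6d were higher, and Sema4d lower, by 1 or more in both sorts, which share no sample. Second probe sets past the filter gave -0.03 for Sema6d and 0.25 for Efnb3 between the day 3 sorts, but 2.73 for Efna5 and 1.84 for Efnb1.

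Among the 3 Sox1-positive samples a slope on day was fitted, to ask which guidance genes changed between day 3 and day 5. No guidance gene passed (0 of 53, 0% of all genes), and 2105 probe sets had an unadjusted p under 0.05. The slope with the lowest p was that of Epha2, -1.13 per day on the log2 scale (SE 0.179, limma adjusted p = 0.209), with 319, 204 and 53.9 on days 3, 4 and 5. Slit2 and Ntn1 had slopes of 0.66 and 0.96 per day (limma adjusted p = 0.412 and 0.431) and Epha4 one of -0.51 (limma adjusted p = 0.477).

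Genes that act beside these ligands and receptors were counted from 2 lists, to be read against the 6.4% of all genes that rose and the 6.17% that fell. Of 25 co-receptors and surface genes 19 were tested, and 4 rose against ES cells: Rgma, a ligand of neogenin (log2 difference 3.74), Nrcam and Ncam1, adhesion molecules (3.76 and 1.03), and Neo1, which encodes neogenin (1.00). None fell, and the median log2 difference was 0.08. Rgma read 2320, 3730 and 4370 in Sox1-positive cells of days 3, 4 and 5, 293 to 855 in the other aggregates, and 165, 206 and 387 in ES cells. Both Rgma and its receptor gene thus rose, with limma adjusted p of 0.00111 and 0.0186. Of 49 intracellular effectors 40 were tested, 9 rose and 1 fell, with a median log2 difference of 0.35. Among them Dpysl2, Dpysl4 and Dpysl5, which encode collapsin response mediators of semaphorin signalling, rose by 1.93, 3.46 and 3.05, Srgap3, a Slit-Robo GTPase activator, by 1.99, and Fyn, a Src-family kinase, by 1.98 (limma adjusted p = 0.016, 0.00191, 0.00198, 0.00562 and 0.00123). Of the same families, Crmp1 and Dpysl3 (0.51 and -0.17) and Srgap1 and Srgap2 (0.86 and -0.21) did not pass. The others that rose were Farp1, Evl, Gipc1 and Nck2, with log2 differences of 1.31, 1.12, 0.77 and 0.76. The gene that fell was Enah, an actin regulator of the same family as Evl, with 5780, 5420 and 7040 in Sox1-positive cells and 13200, 14500 and 14400 in ES cells (log2 difference -1.21, limma adjusted p = 0.00738). Against the other aggregates, where 0.61% of all genes rose, 1 of the 19 and 2 of the 40 did so, namely Rgma, Srgap3 and Farp1 (log2 differences 2.89, 1.65 and 1.05, limma adjusted p = 0.0233, 0.0477 and 0.0449).

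The genes below the filter were Sema3b, Sema3c, Sema3f, Sema3g, Sema6b, Epha10, Ephb3, Efna4, Plxnb3, Ntn4, Robo3 and Slit1. Apart from the day 5 value of Slit1 their intensities, on the probe set used, lay between 8.52 (Sema3b on day 1) and 206 (Sema3g in day 2 E-cadherin-negative cells). They had no test with the filter, and 0 of the 12 were called between Sox1-positive and ES cells when the filter was dropped, which does not show that they were silent or alike. Markers of other lineages that could add guidance genes to a sort were also read. Of the neural crest list 1 of 7 rose (Ednrb) and 2 fell (Foxd3 and Erbb3), with summed levels of 4840 to 12200 in Sox1-positive cells, 3750 to 5400 in the other aggregates and 3560 to 4460 in ES cells. The higher sums rested on Ednrb, which read 2090, 3570 and 9060 in Sox1-positive cells and 20.5 to 91.2 in ES cells. The median log2 difference of the 7 genes from ES cells was -0.21. For mesoderm (3 of 5 on the chips tested) and fibroblasts (5 of 7 tested) 0 passed, and their summed levels were 450 to 506 and 1860 to 2170 in Sox1-positive cells, 459 to 591 and 1350 to 2820 in the other aggregates, and 401 to 446 and 1960 to 2660 in ES cells. Their part in the guidance results was not tested.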

How the data were processed

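RNA of 10 samples in 8 groups was labelled as biotin cRNA and hybridised to 30 arrays, per the labels' protocols. The deposited tables hold linear intensities, scaled by the authors to a common level on each chip, as the trimmed means show. Software, background correction and probe summary: not given in the sources used here. Of 36899 probe sets on the 3 chips, 198 were controls and were left out. Genes were named from the platform annotation, with symbols updated by Entrez ID to RefSeq names (GRCm38.p6).

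The values were used as deposited, as log2 of the intensity plus 16. A probe set entered the tests when its mean over the 10 samples was at or above the chip's 30th percentile (78.6, 117 and 102), leaving 25690. Per gene, the probe set with the highest mean log2 value past the filter was used (12941 genes), and other probe sets are given where they differ. Each chip was fitted by itself with limma 3.58.1 in R 4.3.3 (lmFit and eBayes), and p-values were adjusted by Benjamini-Hochberg over the 3 chips together. Comparisons of sets used those samples alone, and the lone samples were fitted with all 8 groups. The code was tested on simulated data.

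The genes and lists were chosen with earlier results of these data known. Values in every sample are given for genes called in any comparison and for those differing by 1 or more between the sorts of a day with the higher value at or above the chip's median. Other genes with such values (Ntn1, Slit1, Slit3 and the probe sets that disagree) were chosen after their values were seen. Alternatives were a pseudocount of 1 or of 64, quantile normalization, 75th percentile scaling, filtering at the 60th percentile or not at all, the mean over probe sets, any probe set, 1 fit of all 3 sets, and leaving out samples. Plots used matplotlib 3.10.9 under Python 3.11.15. No protein sequences were used here, and promoters were found for 56 of the 65 genes.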

Additional observations from a re-analysis of the deposited data

How the results depend on the processing

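The count of guidance genes called between Sox1-positive and ES cells stayed within 1.5 times of the 12 reported under both other scalings, both pseudocounts, both filters, the mean over probe sets, any probe set and 1 fit of all samples (9 to 18). Leaving out 1 sample at a time gave 6 to 10 calls, with 5 to 8 higher and 1 to 2 lower. Over all genes it gave 736 to 1224 calls, against 1626 with every sample in. The 2 samples with the highest actin ratios left out together gave 6, with 5 higher and 1 lower, and with the mean over probe sets 1 gene was lower. No called difference changed direction under any alternative. Efnb2, Efnb3 and Epha7 (each on its brightest probe set) kept their call in every alternative that tested them. Between Sox1-positive cells and the other aggregates the count of 3 became 1 with no filter, 5 with 1 fit of all samples, 6 with any probe set, 8 without day 5 and day 2 E-cadherin-negative cells together, and 0 to 12 with 1 sample left out. Over all genes 0.61% rose and 1.14% fell in the main fit, and 0.132% and 0.357% with no filter. With 1 fit these shares were 2.49% and 2.92%, and without day 5 and day 2 E-cadherin-negative cells 2.99% and 2.79%. Between the other aggregates and ES cells the count of 0 became 1 with a pseudocount of 64 and 0 to 1 with 1 sample left out. For the lone samples it became 1 in day 2 E-cadherin-negative cells with the filter at the 60th percentile, and 0 to 4 there and 0 to 1 in day 2 E-cadherin-positive cells with 1 ES sample left out. Causes were not tested, except that fewer samples enter where one is left out. No paired analysis was possible because only ES cells have replicate numbers. The alternatives that left out samples in pairs and the count over any probe set were chosen after seeing the data. Signals near background and 1 sample in 7 of 8 groups limit all of this.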
